A study of Mus musculus with 10 samples.

Results

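The 39 genes described here are the DNA repair genes that carry out or signal repair along 7 routes in mouse testes. They were chosen by name from a fixed list, and every non-control probe whose RefSeq accession belongs to 1 of them was taken. All 39 had a probe on the array, 73 probes in all, and all 39 were among the 16738 genes tested. They comprise 4 genes of break signalling, 10 of homologous recombination, 5 of end joining, 3 of mismatch repair, 7 of base excision repair, 7 of nucleotide excision repair and 3 of the Fanconi anaemia pathway.

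The samples were single whole testes of male C57BL/6N mice at 6 weeks of age, each hybridised in 1 colour to an Agilent mouse expression array. The 5 R animals came from dams given 50% of what control dams ate, starting 6.5 days after mating, and were nursed by unrelated control dams. The 5 C animals came from dams with free access to food and were nursed by them, so prenatal diet and fostering cannot be told apart. Both groups ate regular chow freely after weaning. A whole testis mixes germ cells at every stage with somatic cells, and in such bulk RNA fewer cells of a type and less RNA per cell cannot be told apart.

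Cells repair damaged DNA by routes that differ in the damage they accept. Double-strand breaks are sensed by the kinases Atm and Atr and are then either joined end to end or copied from an intact homologous strand. Small base lesions are cut out 1 base at a time, bulky lesions are removed as a short single strand, and mismatches left by replication are excised from the new strand. Spermatocytes make programmed breaks in meiosis and mend them by homologous recombination, while elongating spermatids break and reseal DNA as histones give way to protamines.

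The promoters of the called genes are shown first, so that the upstream sequence of genes called higher and lower can be read side by side. All 8 called genes with a RefSeq window are given, Xrcc3, Ercc4 and Ercc5, which were higher in R testes, and Xrcc4, Palb2, Parp1, Pms2 and Atm, which were lower. Each window is the 250 bases before the gene's start, read 5′ to 3′ on the gene's strand. In RefSeq's assembly GRCm38.p6 they lie at chr12:111813880-111814129 (minus strand) for Xrcc3, chr16:13109486-13109735 (plus strand) for Ercc4, chr1:44147494-44147743 (plus strand) for Ercc5 and chr13:90089609-90089858 (minus strand) for Xrcc4. The others lie at chr7:122132947-122133196 (minus strand) for Palb2, chr1:180568641-180568890 (plus strand) for Parp1, chr5:143909751-143910000 (plus strand) for Pms2 and chr9:53536672-53536921 (minus strand) for Atm. Capitals mark matches on either strand to 5 motifs, the SP box GGGCGG, the NF-Y box CCAAT, the ETS site CCGGAAG, the E2F site TTTNNCGC and the CREM site TGACGTCA, and in these windows matches of different motifs share letters in Pms2 alone.
Xrcc3: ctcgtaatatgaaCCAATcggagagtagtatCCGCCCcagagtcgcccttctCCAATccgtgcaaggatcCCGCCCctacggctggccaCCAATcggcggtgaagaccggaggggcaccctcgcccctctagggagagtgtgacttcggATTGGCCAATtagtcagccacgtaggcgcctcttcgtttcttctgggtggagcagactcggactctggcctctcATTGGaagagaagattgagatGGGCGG
Ercc4: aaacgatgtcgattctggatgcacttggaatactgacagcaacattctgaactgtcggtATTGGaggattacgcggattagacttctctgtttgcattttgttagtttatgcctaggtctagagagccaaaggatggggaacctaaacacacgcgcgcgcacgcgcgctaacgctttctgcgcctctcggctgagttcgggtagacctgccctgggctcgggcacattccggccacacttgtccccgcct
Ercc5: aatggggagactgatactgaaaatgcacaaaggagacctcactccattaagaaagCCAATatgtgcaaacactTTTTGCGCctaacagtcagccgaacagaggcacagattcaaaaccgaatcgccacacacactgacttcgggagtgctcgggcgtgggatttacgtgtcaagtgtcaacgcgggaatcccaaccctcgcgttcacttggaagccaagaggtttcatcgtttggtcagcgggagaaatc
Xrcc4: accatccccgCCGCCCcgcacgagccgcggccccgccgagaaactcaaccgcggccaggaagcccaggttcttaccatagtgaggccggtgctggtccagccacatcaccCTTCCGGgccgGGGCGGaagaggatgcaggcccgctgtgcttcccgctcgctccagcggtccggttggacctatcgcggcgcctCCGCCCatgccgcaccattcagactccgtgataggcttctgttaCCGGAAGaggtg
Palb2: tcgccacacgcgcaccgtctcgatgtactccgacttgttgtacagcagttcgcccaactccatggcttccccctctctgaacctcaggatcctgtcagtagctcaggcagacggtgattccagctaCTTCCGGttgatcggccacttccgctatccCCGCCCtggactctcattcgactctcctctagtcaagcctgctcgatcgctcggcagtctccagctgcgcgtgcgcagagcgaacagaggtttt
Parp1: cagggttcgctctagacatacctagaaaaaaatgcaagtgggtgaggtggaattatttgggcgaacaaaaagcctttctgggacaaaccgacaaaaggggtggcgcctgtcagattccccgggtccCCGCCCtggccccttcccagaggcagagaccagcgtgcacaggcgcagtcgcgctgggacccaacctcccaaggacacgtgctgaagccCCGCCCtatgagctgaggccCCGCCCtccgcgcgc
Pms2: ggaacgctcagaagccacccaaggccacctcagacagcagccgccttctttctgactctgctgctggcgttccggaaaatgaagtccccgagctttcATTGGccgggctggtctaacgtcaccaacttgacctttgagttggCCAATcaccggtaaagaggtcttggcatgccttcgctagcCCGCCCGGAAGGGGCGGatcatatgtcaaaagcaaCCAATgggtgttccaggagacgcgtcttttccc
Atm: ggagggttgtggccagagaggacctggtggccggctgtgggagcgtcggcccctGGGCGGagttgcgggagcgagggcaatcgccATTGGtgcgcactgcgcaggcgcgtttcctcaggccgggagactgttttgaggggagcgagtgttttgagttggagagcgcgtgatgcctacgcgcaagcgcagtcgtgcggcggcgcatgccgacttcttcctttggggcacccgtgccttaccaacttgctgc
Among the genes called higher, the Xrcc3 window held 6 CCAAT and 3 GGGCGG matches, the Ercc4 window 1 CCAAT match, and the Ercc5 window 1 CCAAT and 1 TTTNNCGC match. Among those called lower, the Xrcc4 window held 3 GGGCGG and 2 CCGGAAG matches and the Parp1 window 3 GGGCGG matches. The Palb2 window held 1 GGGCGG and 1 CCGGAAG match, the Pms2 window 3 CCAAT, 2 GGGCGG and 1 CCGGAAG matches, and the Atm window 1 CCAAT and 1 GGGCGG match. CCAAT and GGGCGG thus stood in windows of both directions. Windows were given for 31 of the 39 genes, 36 windows in all. GGGCGG stood in 58.3% of these and in 32.7% of all 32851 promoter windows, and CCAAT in 50% and 33.8%. CCGGAAG stood in 19.4% and 6.91%, TTTNNCGC in 13.9% and 4.28%, and TGACGTCA in 5.56% and 1.55%. These matches describe letters only, since no measurement here bears on the binding of a factor.

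On each array 54.6% to 65.9% of probes stood well above background, no probe was saturated, and the 75th percentile of the processed intensity lay between 566 and 740. A gene's level is given as the log2 signal of its brightest tested probe, that is, the processed intensity on the log2 scale with the array's own 75th percentile subtracted. Differences are R minus C on that scale, and a gene is called where limma's adjusted p, taken over all genes, is under 0.05. Levels of different probes are not compared. Groups follow the deposited labels, but the log2 ratio of the authors' deposited table was made with R replicate 1 among the controls and C replicate 5 among the restricted animals. Under that grouping limma called 0 of the 39 genes (0 at an unadjusted p under 0.05) and 0 of all genes (1259 at an unadjusted p under 0.05). Without the 2 arrays 1 member was called higher and 1 lower, with 14.2% of all genes called. The arrays also lay on 2 slides, slide 1 with R replicates 1 to 4 and C replicates 1 and 2, and slide 2 with R replicate 5 and C replicates 3 to 5. With any 1 of the R arrays or C replicate 1 or C replicate 5 left out, 2 to 4 members were called higher and 1 to 4 lower, beside 22.8% to 30.4% of all genes. Within slide 1 alone 4 members were called higher and 3 lower, beside 39.4% of all genes. With the slide as a covariate 6 were higher and 9 lower, beside 51% of all genes. Xrcc2 lost its call there (−0.20, adjusted p = 0.0688), while Rad51d (0.49, adjusted p = 0.00389) and Xrcc1 (0.22, adjusted p = 0.0316) were called higher and Apex1 (−0.31, adjusted p = 0.0242), Ercc3 (−0.22, adjusted p = 0.0297) and Msh6 (−0.37, adjusted p = 0.00959) lower. Within slide 2 alone, with 1 R array, limma called 0 members (2 at an unadjusted p under 0.05) and 0 of all genes (3595).

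Of the 39 repair genes, 4 were called higher in R testes (Nbn, Xrcc3, Ercc4 and Ercc5) and 7 lower (Xrcc4, Palb2, Parp1, Pms2, Xrcc2, Xpc and Atm), and 28 were not called. These 11 of 39 stand beside 34.6% of all genes called in either direction, 12.6% called higher and 22.1% called lower. The changes were small, between 1.12-fold and 1.44-fold. By their brightest probes none of the 39 passed the study's criterion of an adjusted p with a fold above 1.5 or under 0.66, against 10.3% of all genes. Further probes of some members differed by more, as given below. The median difference of the 39 was −0.01, against −0.05 over all genes, with 17 positive and 22 negative. For 26 of the 28 genes not called the 95% interval of the difference lay within 1.5-fold in both directions, the exceptions being Rad51c and Rad51d. At 8 genes (3 higher, 5 lower) the R arrays and the C arrays did not overlap, against 29.3% of all genes.

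**Figure D1:**
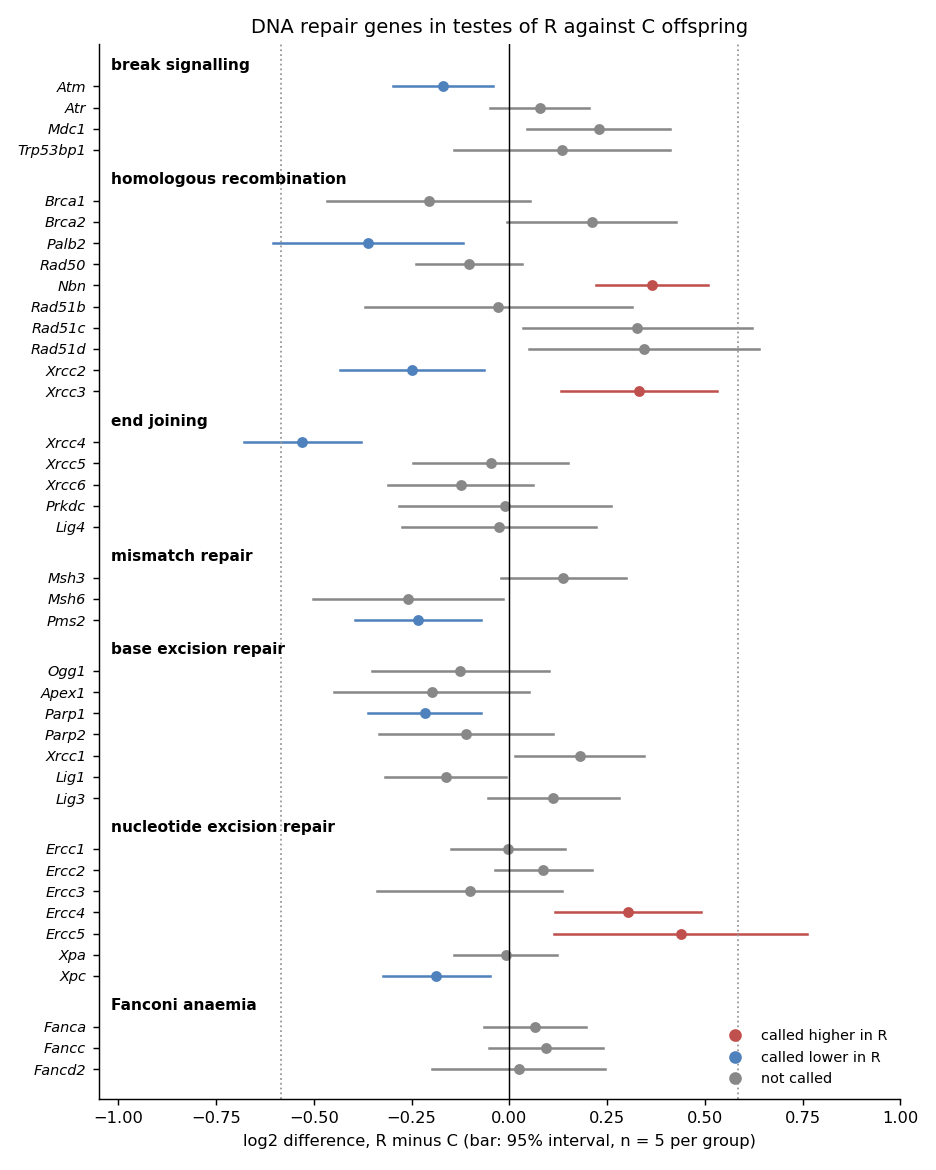
Log2 difference (R minus C) of each of the 39 DNA repair genes with its 95% interval, grouped by pathway (5 arrays per group), red where called higher, blue where called lower and grey where not called, with dotted lines at 1.5-fold. Called genes of both directions stand within the same pathway, as Nbn and Xrcc3 against Palb2 and Xrcc2, and most grey intervals lie inside the dotted lines.

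Among the genes that signal breaks, 1 of 4 was lower in R testes and none was higher. Atm, the kinase that is activated at double-strand breaks, had log2 signals of −1.69, −1.67, −1.61, −1.63 and −1.69 in R testes, against −1.55, −1.51, −1.46, −1.54 and −1.39 in C testes. All 5 R arrays lay below all 5 C arrays, and the difference was −0.17 ± 0.057 (SE), or 1.12-fold lower (95% interval 1.03 to 1.23, adjusted p = 0.0434). Atr, the related kinase that responds to stalled replication and single-stranded DNA, spanned 5.06 to 5.22 in R testes and 5.01 to 5.12 in C testes and was not called (0.08, adjusted p = 0.295). Mdc1, the adaptor that binds phosphorylated histone at breaks, lay at 2.92, 2.91, 3.06, 3.05 and 2.69 in R testes, against 2.73, 2.61, 2.76, 2.77 and 2.62 in C testes. R replicate 5 lay among the C arrays while the 4 other R arrays lay above them, and Mdc1 missed the threshold at 0.23 (adjusted p = 0.0532), which it passed without R replicate 5 (adjusted p = 0.0215). Trp53bp1, which restrains the trimming of broken ends, overlapped between the groups (0.13, adjusted p = 0.404). Atm lost its call without any 1 of 8 arrays, all R arrays and C replicates 1, 3 and 5 (adjusted p up to 0.0953). The median of the 4 genes was 0.11, and −0.08 when arrays were referred to their medians.

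In homologous recombination 2 of 10 genes were higher and 2 lower. Nbn, the subunit through which the Mre11 complex recruits Atm, had log2 signals of −0.32, −0.25, −0.27, −0.27 and −0.35 in R testes, against −0.67, −0.79, −0.52, −0.62 and −0.68 in C testes. The groups did not overlap, and Nbn was 1.29-fold higher in R testes (difference 0.36 ± 0.064 (SE), 95% interval 1.17 to 1.42, adjusted p = 0.00383). It kept its call when any 1 array was left out and when both arrays placed otherwise by the authors' table were left out (0.37), and its difference was 0.45 within slide 1 and 0.26 within slide 2. Rad50, the coiled-coil ATPase of the same complex, spanned −0.09 to −0.02 in R testes and −0.04 to 0.15 in C testes and was not called (−0.10, adjusted p = 0.198).

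Rad51b, Rad51c, Rad51d, Xrcc2 and Xrcc3 are related genes whose proteins act in complexes on single-stranded DNA during recombination. Xrcc3 was at −0.46, −0.78, −0.47, −0.48 and −0.52 in R testes, against −0.87, −0.99, −0.71, −0.77 and −1.03 in C testes. R replicate 2 fell among the C arrays and the 4 other R arrays lay above it, with a rise of 1.26-fold (difference 0.33 ± 0.090 (SE), adjusted p = 0.0198). The call was lost without R replicate 1 or R replicate 4 (adjusted p up to 0.0502). Xrcc2 was at −0.92, −1.01, −0.73, −0.75 and −0.82 in R testes, against −0.76, −0.65, −0.48, −0.62 and −0.48 in C testes. The groups overlapped at C replicate 1, and Xrcc2 was 1.19-fold lower (difference −0.25 ± 0.083 (SE), adjusted p = 0.0410). It kept its call only without R replicate 3, C replicate 1 or C replicate 2, with an adjusted p of up to 0.0902 without any other array. Rad51d (0.34, adjusted p = 0.0658) and Rad51c (0.33, 0.0759) were not called. Both were called without C replicate 4, Rad51c also without R replicate 4 and Rad51d also without C replicate 3. Rad51c was a dim probe, well above background on 3 R arrays and 3 C arrays. Rad51b was near 0 at −0.03 with the widest error of the 39, 0.15 (SE).

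Of Palb2 and the breast cancer genes it connects, Palb2 was called and Brca1 and Brca2 were not. Palb2, the protein that bridges Brca1 and Brca2, had log2 signals of −3.17, −3.08, −3.02, −2.92 and −3.01 in R testes, against −3.03, −2.49, −2.70, −2.70 and −2.46 in C testes. C replicate 1 lay among the R arrays, and Palb2 was 1.29-fold lower in R testes (difference −0.36 ± 0.11 (SE), adjusted p = 0.0293). Its call was lost without R replicates 1, 2, 3 or 5 or C replicate 5 (adjusted p up to 0.0701). Brca2, a mediator of strand exchange, spanned 2.29 to 2.63 in R testes and 1.99 to 2.37 in C testes and was not called (0.21, adjusted p = 0.111). Brca1, a ubiquitin ligase that promotes trimming of the ends, was not called either (−0.21, adjusted p = 0.181). The median of the 10 genes was 0.09, and −0.10 when arrays were referred to their medians.

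End joining held the largest change of the 39. Xrcc4, the scaffold of the ligase that seals broken ends, had log2 signals of 1.33, 1.27, 1.49, 1.36 and 1.45 in R testes, against 1.80, 1.96, 1.99, 1.90 and 1.91 in C testes. Every R array lay below every C array, and Xrcc4 was 1.44-fold lower in R testes (difference −0.53 ± 0.067 (SE), 95% interval 1.30 to 1.60, adjusted p = 0.00136). It kept its call without any 1 array and without the 2 arrays in dispute (−0.52), and its difference was −0.51 within slide 1 and −0.48 within slide 2. Lig4, the ligase that Xrcc4 holds, spanned 0.59 to 0.85 in R testes and 0.38 to 0.98 in C testes and was not called (−0.03, adjusted p = 0.863). The same held for Xrcc5 and Xrcc6, the Ku subunits that cap broken ends (−0.05 and −0.12, adjusted p = 0.687 and 0.254), and for Prkdc, the kinase that Ku recruits (−0.01, adjusted p = 0.953). The differences of all 5 genes were negative, with a median of −0.05, which became 0.04 with the authors' scaling factors.

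In mismatch repair 1 of 3 genes was lower and none higher. Pms2, an endonuclease subunit that acts after a mismatch is found, had log2 signals of −1.79, −1.81, −1.71, −1.84 and −1.62 in R testes, against −1.53, −1.39, −1.63, −1.60 and −1.44 in C testes. Only R replicate 5 fell among the C arrays, and Pms2 was 1.18-fold lower (difference −0.23 ± 0.073 (SE), adjusted p = 0.0322). The call was lost without any 1 of R replicates 1 to 4 or C replicates 1 and 5 (adjusted p up to 0.0788). Its differences were −0.33 within slide 1 and −0.06 within slide 2. Msh6 and Msh3, which recognise different classes of mismatch, were not called, at −0.26 and 0.14 (adjusted p = 0.0874 and 0.153), though Msh6 passed without C replicate 4 (adjusted p = 0.0452).  The median difference was −0.23 and kept its sign under each scaling run.

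In base excision repair 1 of 7 genes was lower and none higher. Parp1, which marks strand breaks with poly(ADP-ribose), had log2 signals of 1.35, 1.32, 1.51, 1.38 and 1.51 in R testes, against 1.63, 1.72, 1.65, 1.61 and 1.55 in C testes. The groups did not overlap, and Parp1 was 1.16-fold lower in R testes (difference −0.22 ± 0.065 (SE), adjusted p = 0.0291). Its call was lost without R replicates 1, 2 or 4 or C replicate 1 (adjusted p up to 0.0710), and its differences were −0.28 within slide 1 and −0.09 within slide 2. Lig1, the ligase of replication, spanned 1.79 to 1.89 in R testes and 1.91 to 2.19 in C testes without overlap, but missed the threshold at −0.16 (adjusted p = 0.0898). The glycosylase gene Ogg1, which starts the removal of oxidised guanine, and Apex1, which cuts the emptied site, were not called (−0.13 and −0.20, adjusted p = 0.343 and 0.181). Neither were Parp2, a second polymerase of poly(ADP-ribose) (−0.11, adjusted p = 0.392), the scaffold gene Xrcc1 (0.18, 0.0820) or Lig3, the ligase bound to it (0.11, 0.252). The median was −0.13, and −0.04 with the authors' scaling factors.

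Nucleotide excision repair held calls in both directions, and Ercc4 and Ercc5, the genes of the 2 subunits that cut, were higher. Ercc4, the catalytic subunit that cuts 5′ of the lesion, had log2 signals of 3.26, 3.33, 3.40, 3.46 and 3.33 in R testes, against 3.17, 2.80, 3.16, 3.12 and 3.01 in C testes. The groups did not overlap, and Ercc4 was 1.23-fold higher in R testes (difference 0.30 ± 0.084 (SE), adjusted p = 0.0212). The call was lost without R replicate 4 (adjusted p = 0.0556). Ercc5, which cuts 3′ of the lesion, was at 0.65, 0.75, 0.68, 0.65 and 0.88 in R testes, against 0.18, −0.25, 0.52, 0.56 and 0.41 in C testes. All R arrays lay above all C arrays, C replicate 2 being the lowest, and Ercc5 was 1.36-fold higher (difference 0.44 ± 0.15 (SE), adjusted p = 0.0406). It lost its call without any R array, C replicate 1 or C replicate 5 (adjusted p up to 0.0882).

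Xpc, the sensor that opens repair of the whole genome, was at −0.84, −0.75, −0.88, −0.81 and −0.77 in R testes, against −0.69, −0.52, −0.58, −0.62 and −0.71 in C testes. Here all R arrays lay below all C arrays, and Xpc was 1.14-fold lower (difference −0.19 ± 0.062 (SE), adjusted p = 0.0407), a call that held only without C replicate 1 or C replicate 5 (adjusted p up to 0.0940 without any other array). Ercc1, the partner that positions Ercc4, was at −0.0029 (adjusted p = 0.976), and Xpa, which verifies the damage, at −0.01 (adjusted p = 0.908). The helicase genes Ercc2 and Ercc3 of the factor TFIIH were not called (0.09 and −0.10, adjusted p = 0.238 and 0.466). The median of the 7 genes was −0.0029, and −0.19 when arrays were referred to their medians.

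None of the 3 Fanconi anaemia genes, which act on crosslinks between strands, was called by limma, and none had an unadjusted p under 0.05. Fanca and Fancc, of the core ligase complex, were at 0.06 and 0.09 (adjusted p = 0.398 and 0.271), and Fancd2, its substrate, at 0.02 (adjusted p = 0.866). The groups overlapped at all 3 genes. Their median was 0.06, and −0.13 when arrays were referred to their medians.

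**Figure D2:**
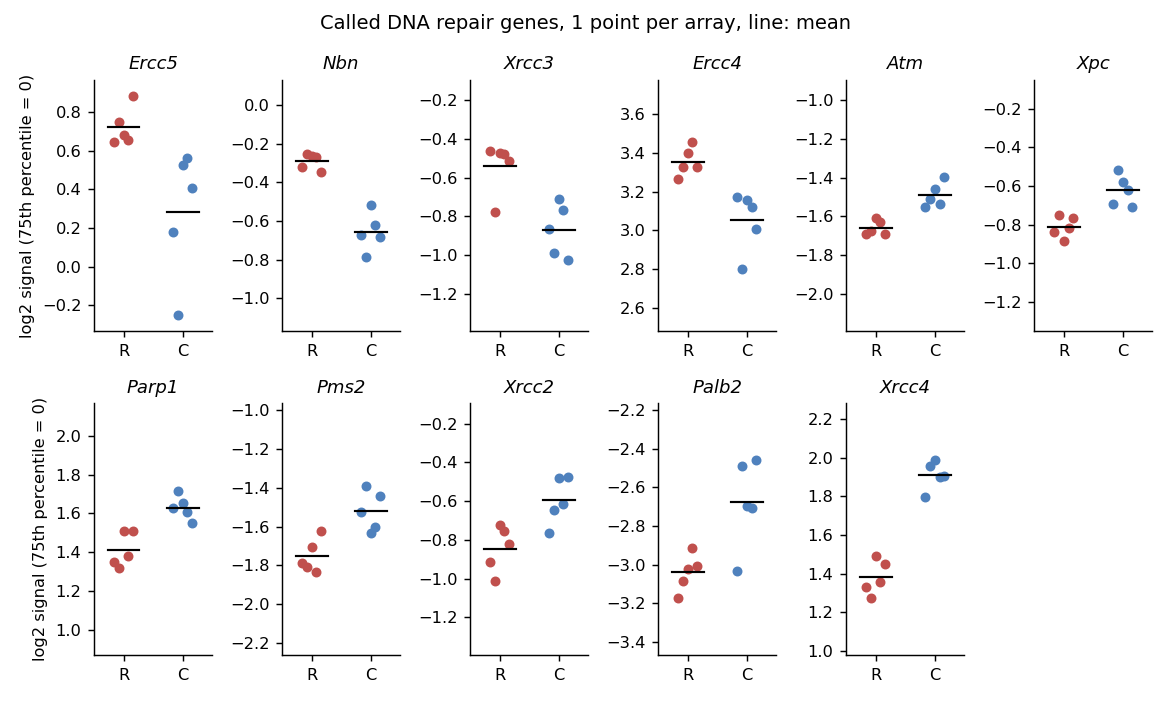
Log2 signal of the 11 called DNA repair genes, 1 point per array and a line at the group mean, R (red) left of C (blue), each panel with its own axis of the same span. The points of R and C are separate for Ercc5, Nbn, Ercc4, Atm, Xpc, Parp1 and Xrcc4, and overlap for Xrcc3, Pms2, Xrcc2 and Palb2.

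The 11 called genes kept their signs under the other scalings run, but how many members passed in each direction did not. When arrays were referred to their medians, where the median over all genes was −0.24 in place of −0.05, the members' median was −0.20 and the calls were 0 higher and 11 lower, beside 41.7% of all genes called. With the authors' scaling factors, where the median over all genes was 0.04, the calls were 6 higher and 1 lower (Xrcc4), beside 33.7% of all genes. The members' median lay slightly above that of all genes in each of these scalings. Each scaling moves all genes of an array by 1 constant, so this could not have come out otherwise. Without the 2 arrays placed otherwise by the authors' table, Nbn and Xrcc4 were the calls left, and the 9 others kept their sign with differences of 0.27, 0.32, 0.49, −0.28, −0.22, −0.21, −0.20, −0.20 and −0.14 for Xrcc3, Ercc4, Ercc5, Palb2, Parp1, Pms2, Xrcc2, Xpc and Atm. With the table's own grouping the 11 genes had the same signs and smaller differences, 0.22 for Nbn and −0.30 for Xrcc4. Within slide 1 and within slide 2 the differences were 0.38 and 0.32 for Xrcc3, 0.38 and 0.23 for Ercc4, 0.72 and 0.39 for Ercc5 and −0.28 and −0.39 for Palb2. They were −0.15 and −0.30 for Xrcc2, −0.22 and −0.13 for Xpc and −0.12 and −0.23 for Atm. The authors' deposited table lists 1 probe each of Ercc1 and Mdc1, dimmer than the brightest probes described above, with log2 ratios of −0.18 (p = 0.00442) and 0.75 (p = 0.0218), both at a q of 0.515. The same probes differed here by −0.27 (adjusted p = 0.0120 over all probes) and 0.43 (0.264).

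**Figure D3:**
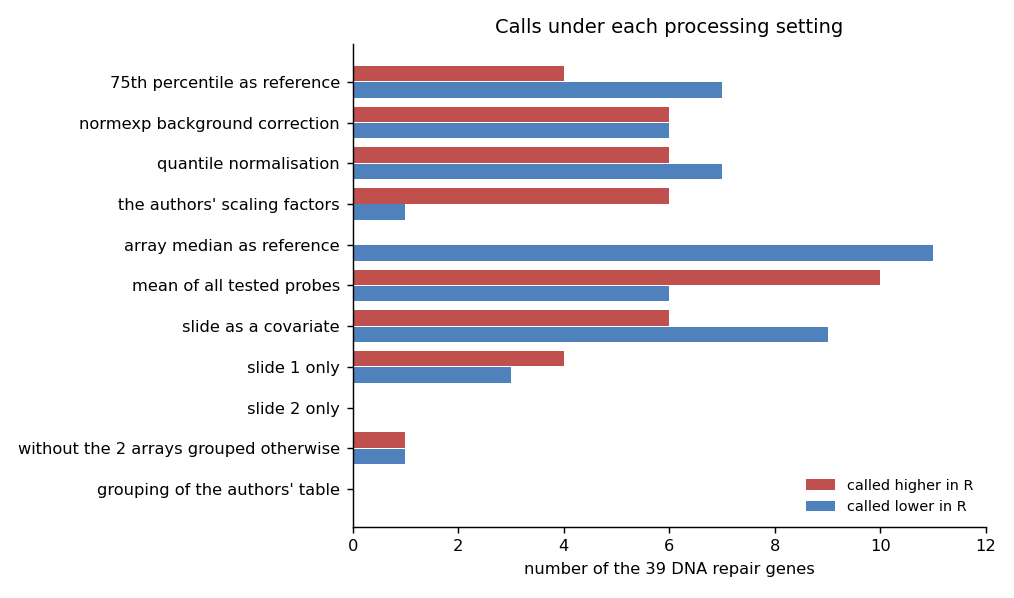
Number of the 39 DNA repair genes called higher (red) and lower (blue) in R testes under each processing setting. The main setting gives 4 and 7, the array median as reference 0 and 11, the mean of all tested probes 10 and 6, and there are no bars under the authors' own grouping.

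The wider membership of the same pathways was described from a list of 108 further genes, of which 105 were tested. Of these, 14 were higher, 29 lower and 62 not called, beside 12.6% of all genes called higher and 22.1% lower. The median difference of the 105 was −0.11 (against −0.05 over all genes). Without the 2 disputed arrays 11 were higher and 13 lower, beside 14.2% of all genes called. When arrays were referred to their medians 7 were higher and 44 lower, beside 852 higher and 6127 lower of all 16738 genes. In break signalling (2 higher, 3 lower of 17), Topbp1, an activator of Atr, was at −0.52, the checkpoint kinase Chek1 at 0.40 and Rif1, a partner of Trp53bp1, at 0.41. In homologous recombination (5 higher, 7 lower of 20) Rpa3, the smallest subunit of the single-strand binding protein, fell most of all the genes listed. Its log2 signals were −0.08, −0.12, 0.08, −0.13 and −0.14 in R testes, against 1.04, 1.79, 1.09, 1.09 and 1.31 in C testes, a difference of −1.34 ± 0.14 (SE) (adjusted p = 9.11e-04). Exo1, a nuclease that trims ends, was at −0.56 and Rmi1, which helps to resolve crossed strands, at 0.66. In end joining (1 higher, 1 lower of 10) Tdp2, which frees ends blocked by a topoisomerase, was at −0.88 and Dclre1c, the nuclease that opens hairpin ends, at 0.54.

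In mismatch repair (1 higher, 3 lower of 12) Pms1, a relative of Pms2, was at −0.40, the polymerase gene Pold1 at −0.27 and the clamp loader gene Rfc1 at 0.31. In base excision repair (1 higher, 4 lower of 16) the glycosylase genes Nthl1 and Smug1 were at −0.69 and −0.37 and the endonuclease gene Apex2 at 0.80. In nucleotide excision repair (3 higher, 7 lower of 17) the damage sensor Ddb2 was at −0.42, and 2 subunits of TFIIH moved in opposite directions, Gtf2h1 at 0.45 and Gtf2h3 at −0.68. In the Fanconi anaemia pathway (1 higher, 4 lower of 13) Fancf of the core complex was at −1.03, the translocase Fancm at −0.58 and the ubiquitin-conjugating enzyme Ube2t at −0.59. These named genes are the up to 3 of smallest p among the called genes of each pathway, and all had adjusted p of at most 0.0383.

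Genes whose proteins work together were set side by side in 13 pairs. The pairs were picked with earlier results of these data known, so their values are a description. P-values computed for the pairs are therefore not given. For each pair the difference between the log2 signals of the 2 genes was taken within each array, which no scaling constant of the array can change, and its R mean minus its C mean is given. Xrcc4 differed from its ligase Lig4 by −0.50 in R against C testes. Nbn differed from Rad50 by 0.47 and Ercc4 from Ercc1 by 0.31. Brca2 differed from Palb2 by 0.57, Rad51d from Xrcc2 by 0.59 and Atm from Atr by −0.25. The R arrays and the C arrays did not overlap at these 6 pairs. No share over pairs of other genes is given, so this count is not read as a result about the complexes.

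The values of the 7 other pairs overlapped between the groups. Msh3 and Msh6 differed by 0.40, and by 0.26 without C replicate 2. The Ku genes Xrcc5 and Xrcc6 differed by 0.08, Xrcc1 and Lig3 by 0.07, and Xrcc3 and Rad51c by 0.0039. Parp1 and Parp2 differed by −0.11, Ercc2 and Ercc3 by 0.19, and Ercc5 and Ercc4 by 0.14. Without the 2 disputed arrays the differences of the 6 pairs without overlap were −0.51 for Xrcc4 and Lig4, 0.48 for Nbn and Rad50, 0.33 for Ercc4 and Ercc1, 0.54 for Brca2 and Palb2, 0.57 for Rad51d and Xrcc2 and −0.21 for Atm and Atr. With the grouping of the authors' table they were smaller, −0.32, 0.31, 0.21, 0.30, 0.33 and −0.08 in the same order. Over the mean of all tested probes Rad51d and Xrcc2 differed by 0.39, Atm and Atr by −0.45, Brca2 and Palb2 by 0.91, Ercc4 and Ercc1 by 0.52 and Ercc2 and Ercc3 by 0.54, while Xrcc1 and Lig3 (−0.07) and Parp1 and Parp2 (0.16) changed sign.

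**Figure D4:**
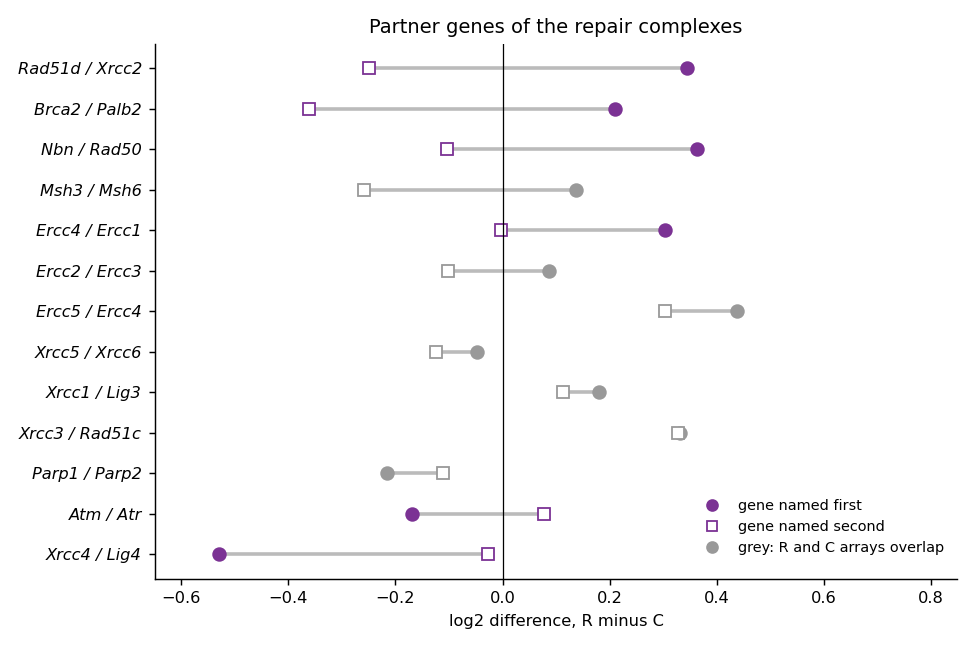
Log2 differences (R minus C) of the 2 genes of each pair, filled circles for the gene named first and open squares for the gene named second, purple where the within-array difference of the pair did not overlap between R and C arrays and grey where it did (5 arrays per group). Rad51d and Xrcc2 lie 0.59 apart and Brca2 and Palb2 0.57 apart on opposite sides of 0, while Xrcc3 and Rad51c coincide.

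Further probes of the same genes mostly shared the sign of the brightest probe and differed by more. Of the 39 genes 23 had further tested probes, 30 in all. Of these, 25 had the sign of the brightest probe (83.3%, against 68.1% over all genes) and 23 a larger difference in size (76.7%, against 59.6%). Adjusted over all probes, 17 of 30 were called (56.7%, against 43.4% of the further probes of all genes), 11 higher and 6 lower. Over all genes 1490 of 7040 further probes were called higher and 1563 lower. Only 5 of the 23 genes had a called brightest probe. Just 3 of these had a called further probe, each with the sign of the brightest, too few to judge how often signs are shared. The median size was 0.39 in the further probes and 0.14 in the brightest ones, against 0.28 and 0.23 over all genes. Of the 23 genes 13 had a further probe that was called, against 2656 of 5614 such genes over all genes. Of the 18 members not called by the brightest probe, 10 had a further probe that was called. No share over all genes of that class is given, so this count is not read as a result about the members. All 3 further probes of Trp53bp1 were called higher (0.49, 0.73 and 0.48, adjusted p up to 0.0182), as were both of Brca2 (0.55 and 0.41) and 2 of 3 of Msh3.

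Single further probes of Fanca (0.77), Ercc2 (0.68), Ercc4 (0.46) and Lig3 (0.38) were called higher. Those of Parp2 (−0.63), Atm (−0.57), Palb2 (−0.67), Ercc1 (−0.27), Ercc3 (−0.22) and 1 of 2 of Apex1 (−0.34) were called lower. The 2 further probes of Rad51d were at 0.03 and 0.05 and the further probe of Pms2 was at −0.01, none of them called. Brca1 had a further probe of the opposite sign that was not called (0.67, adjusted p = 0.171). Taken over the mean of all tested probes, 10 members were higher and 6 lower, beside 34.9% of all genes called, with Brca2, Ercc2, Fanca, Lig3, Msh3 and Trp53bp1 added to the higher and Parp2 to the lower, while Pms2 and Xpc were no longer called. Which transcripts or transcript ends the probes read was not analysed here. Without the 2 disputed arrays 12 of the 30 probes were called, and 0 by limma with the grouping of the authors' table. The shares over the further probes of all genes are not given for these settings, so these counts are not read as results about the members.

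**Figure D5:**
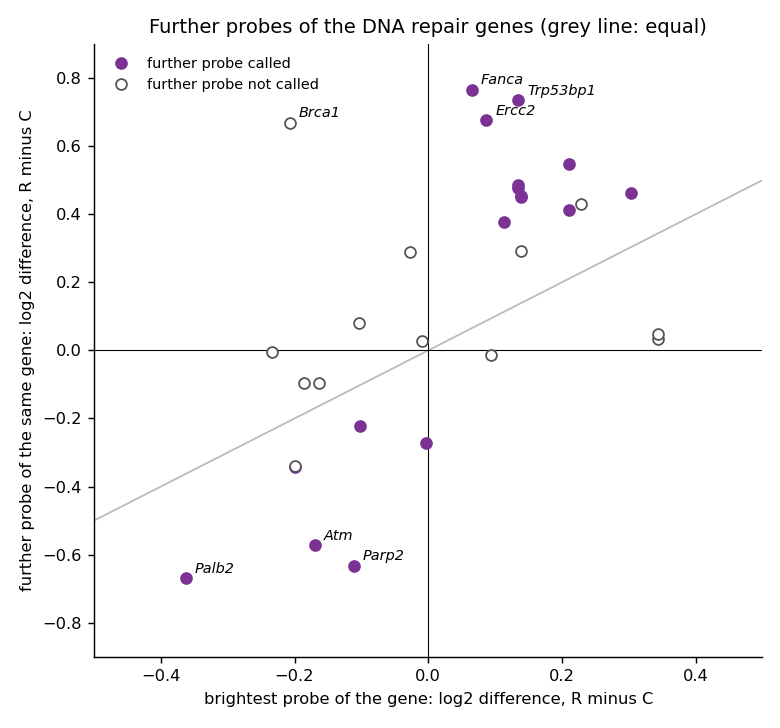
Log2 difference (R minus C) of each of 30 further probes against that of the brightest probe of the same gene, filled where the further probe was called and open where it was not, with a grey line at equality. Most points lie in the quadrants of equal sign and farther from 0 than the line, with Brca1 as the largest exception in sign.

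Markers of testis cells and of dividing cells were set beside the repair genes, and their part in the results was not tested. Of 16 genes of proliferation and S phase 9 were lower and 1 higher, with a median of −0.41 and a mean level of 0.92 to 1.04 in R testes and 1.15 to 1.55 in C testes. Of 10 spermatogonial markers 4 were lower and 2 higher (median −0.28), with a mean level of 0.31 to 0.42 in R testes and 0.49 to 0.91 in C testes. Of 12 spermatocyte markers 5 were lower and 1 higher (median −0.17), at 3.51 to 3.60 in R testes and 3.75 to 3.94 in C testes. The groups did not overlap in any of these 3 means. Of 10 markers of elongating spermatids 2 were lower and 0 higher (median 0.03), at 7.27 to 7.44 in R testes and 7.29 to 7.55 in C testes, and of 10 of round spermatids 1 was lower and 1 higher (median −0.07), at 3.80 to 4.05 in R testes and 3.76 to 4.16 in C testes. Sertoli markers were lower at 10 of 11 genes (median −0.60), with a mean level of 2.06 to 2.29 in R testes and 2.44 to 3.23 in C testes, and Leydig markers at 3 of 7 (median −0.30), with a mean level of 0.97 to 1.47 in R testes and 1.23 to 2.05 in C testes. Macrophage markers were lower at 4 of 7 (median −0.55) and blood markers at 2 of 3 (median −0.72), with mean levels of −1.51 to −1.06 in R testes and −1.06 to −0.54 in C testes for macrophages and of 0.29 to 1.41 in R testes and 1.2 to 2.17 in C testes for blood. Endothelial markers were higher at 4 of 7 (median 0.42), at −2.13 to −1.92 in R testes and −2.70 to −2.25 in C testes. Of 6 peritubular myoid markers 1 was lower and 1 higher (median 0.03), at 0.65 to 1.32 in R testes and 0.66 to 1.11 in C testes. All tested germ cell and Sertoli markers were above background on all 10 arrays.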

How the data were processed

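The arrays were read from the scanner output. The deposited intensity of each spot is the processed signal of Agilent Feature Extraction (version 12.0.3.1 in the submitters' processing notes), from which background had been subtracted per the file headers. The deposited score columns hold that software's flags, 0 or 1 for each spot, for signal well above background, saturation and outliers. Probe annotation was on mm9, per the file headers. A comparison table of 2266 probes was deposited as well, holding the authors' log2 ratio with its p-value and q-value and each array's scaled intensity. How its scaling was chosen is not given in the sources used here, and 10 further columns of per-sample values in it were not used. The side of each array in that table was found from the table's own log2 ratio, with a largest error of 8.85e-10.

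Spots of a probe were averaged on the log2 scale after control and outlier spots were left out, which gave 56605 probes. Each array's 75th percentile over these probes was subtracted. Of them, 33767 were named by accession in the RefSeq gene table of GRCm38.p6. The 33851 probes that cleared background on 5 or more of the 10 arrays were fitted by lmFit and eBayes of limma 3.58.1 under R 4.3.3, and the brightest tested probe stood for a gene. P-values were adjusted by Benjamini-Hochberg over 16738 genes, with calls at an adjusted p under 0.05. The procedure was tested on simulated data. The sources used here do not give litters, RNA integrity or which RNA kit was used for which testis. P-values therefore take the 10 testes as independent, and precision is limited by how many arrays there are.

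The 39 genes, the lists of other pathway genes and markers, and the pairs were chosen with earlier results of these data known. No list was tested for that reason, and p-values computed for the pairs are not used. Named genes are all 39 members and, of the other genes of each pathway, up to 3 of smallest p among those called. Promoter sequences came from RefSeq. Alternatives covered normexp background correction (offset 50, on the spot median in place of the spot mean that had been planned), quantile normalisation, the array median, the authors' scaling factors, 2 other filters, the mean of all probes, adjustment over probes, slides, array weights, a trended variance, the grouping of the authors' table and each array left out. The alternatives for the pairs, and the counts of other genes and further probes under them, were chosen after seeing the data.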

Additional observations from a re-analysis of the deposited data

Results flagged for a closer look

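Xrcc3 in R replicate 2 lay at −0.78 on the log2 signal scale, while the 4 other R arrays lay between −0.52 and −0.46. Its gap to the nearest of them took 0.823 of the range of the 5 R arrays, above Dixon's 95% critical value of 0.71 for 5 samples. It was the only such array among 78 groups looked at (39 genes in R and in C), where chance alone marks about 1 in 20. Without R replicate 2, Xrcc3 was still called higher.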

How the results depend on the processing

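No called gene changed its sign under any alternative run. Nbn lost its call under the array median, within slide 2 and under the grouping of the authors' table, and Xrcc4 within slide 2 and under that grouping. The members called higher and lower were 4 and 7, and they were 0 and 11 under the array median, 6 and 1 with the authors' scaling factors, 2 and 1 without a filter, 10 and 6 with probes of a gene averaged, 4 and 3 within slide 1, 0 and 0 within slide 2, 0 and 0 with the table's grouping, 1 and 1 without the 2 arrays it places otherwise, and 0 and 0 under the study's criterion. Without a filter 16.2% of all genes were called, against 34.6% in the main setting. Leaving out each array in turn gave 2 to 6 higher and 1 to 6 lower, the fewest without R replicate 1, beside 22.8% to 37.7% of all genes called. The members' median of −0.01 moved to −0.20 with the array median, 0.078 with the authors' scaling, 0.055 with the slide as a covariate and 0.046 within slide 1, and ranged over −0.045 to 0.020 with each array left out. With the array median the pathway medians were −0.084 for break signalling, −0.099 for homologous recombination, −0.24 for end joining, −0.42 for mismatch repair, −0.32 for base excision repair, −0.19 for nucleotide excision repair and −0.13 for the Fanconi anaemia genes. With the authors' scaling those of end joining, nucleotide excision repair and Fanconi anaemia were 0.041, 0.086 and 0.15. Within slide 1 those of break signalling, homologous recombination, mismatch and base excision repair were 0.21, 0.27, −0.33 and −0.23. Within slide 2 those of break signalling, mismatch repair, nucleotide excision repair and Fanconi anaemia were −0.023, −0.064, 0.061 and 0.16. The mismatch median was −0.12 over the mean of probes and −0.096 with the table's grouping, and the end joining median −0.15 with array weights. With each array left out the pathway medians ranged over 0.066 to 0.14, 0.032 to 0.14, −0.11 to −0.029, −0.26 to −0.17, −0.16 to −0.047, −0.028 to 0.020 and 0.038 to 0.082, in the order above. Slide 2 holds 1 R array, whose spread is taken from the C arrays. Under the array median and the authors' scaling each array moves by 1 constant, so these 2 settings shift the differences of all genes, and all these medians, alike. The cause of the other shifts was not tested. No paired analysis was possible because the labels give no pairing of R with C animals. The labels give no replicate numbers either, and those used here follow the order of the samples within each group. Standard errors of 0.056 to 0.15 limit what 5 arrays a group can show.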
